A study of Mus musculus with 18 samples.

Results

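The Slc25 family, the solute carriers of the mitochondrial inner membrane, was examined in tracheal cells that had been sorted from untreated mice. Its members were taken as the gene symbols made of Slc25a and a number, of which the deposited count table held 47 among 26327 symbols. Brush cells were the CD45- EpCAM+ eGFP+ cells and formed 7 libraries. EpCAM+ cells, sorted as CD45- EpCAM+, formed 7 libraries, and CD45+ hematopoietic cells formed 4. All mice were of a B6.Cg strain with the BAC transgene Tg(RP23-268L19-EGFP)2Mik, in which sequence around the choline acetyltransferase gene Chat drives eGFP, so brush cells were defined by activity of that transgene. The EpCAM+ gate as worded does not leave out eGFP+ cells, and the age of the mice is not given in the labels. The labels do not say whether 1 animal gave 1 library, so p-values measure the spread between libraries, which may be technical.

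Slc25 carriers are nuclear-encoded proteins of one common fold that exchange metabolites, nucleotides, cofactors and inorganic ions between the cytosol and the mitochondrial matrix. They couple ATP synthesis, the redox shuttles, amino acid breakdown, fatty acid oxidation and heme synthesis to the rest of the cell, and a few members sit in the peroxisome or the outer membrane instead. Brush (tuft) cells are a sparse chemosensory type of the airway epithelium that uses taste transduction proteins and releases acetylcholine, interleukin 25 and lipid mediators.

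Total counts were 838328 to 6031711 in brush, 2442601 to 6087184 in EpCAM+ and 371652 to 7438791 in CD45+ libraries, and Slc25 genes took 901 to 15338, 4608 to 21335 and 254 to 15733 of them. Ribosomal RNA genes held 24 to 63.5% of counts in brush, 12.2 to 34.1% in EpCAM+ and 20.7 to 43.4% in CD45+ libraries. Earlier work on these files had found brush 4, EpCAM+ 5 and CD45+ 1 to stand apart. Brush 4 and CD45+ 1 had the lowest totals of their groups, and EpCAM+ 5 had the lowest share of ribosomal RNA. The 10 brush cell markers summed to 9666 to 11210 CPM (counts scaled to library size by TMM) in brush, 8.07 to 35.7 CPM in EpCAM+ and 11.5 to 110.9 CPM in CD45+ libraries. Pan-leukocyte markers summed to 19.2 to 45.1, 0 to 4.04 and 5591 to 6884 CPM in the same order of groups. Club and goblet cell markers summed to 353 to 3302 CPM in brush, against 32380 to 145000 CPM in EpCAM+ libraries, and basal cell markers to 34.4 to 114.8 CPM against 947 to 2431 CPM. EpCAM+ libraries thus held markers of several epithelial cell types, and in such bulk RNA fewer cells of a type and less RNA per cell cannot be told apart.

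**Figure D1:**
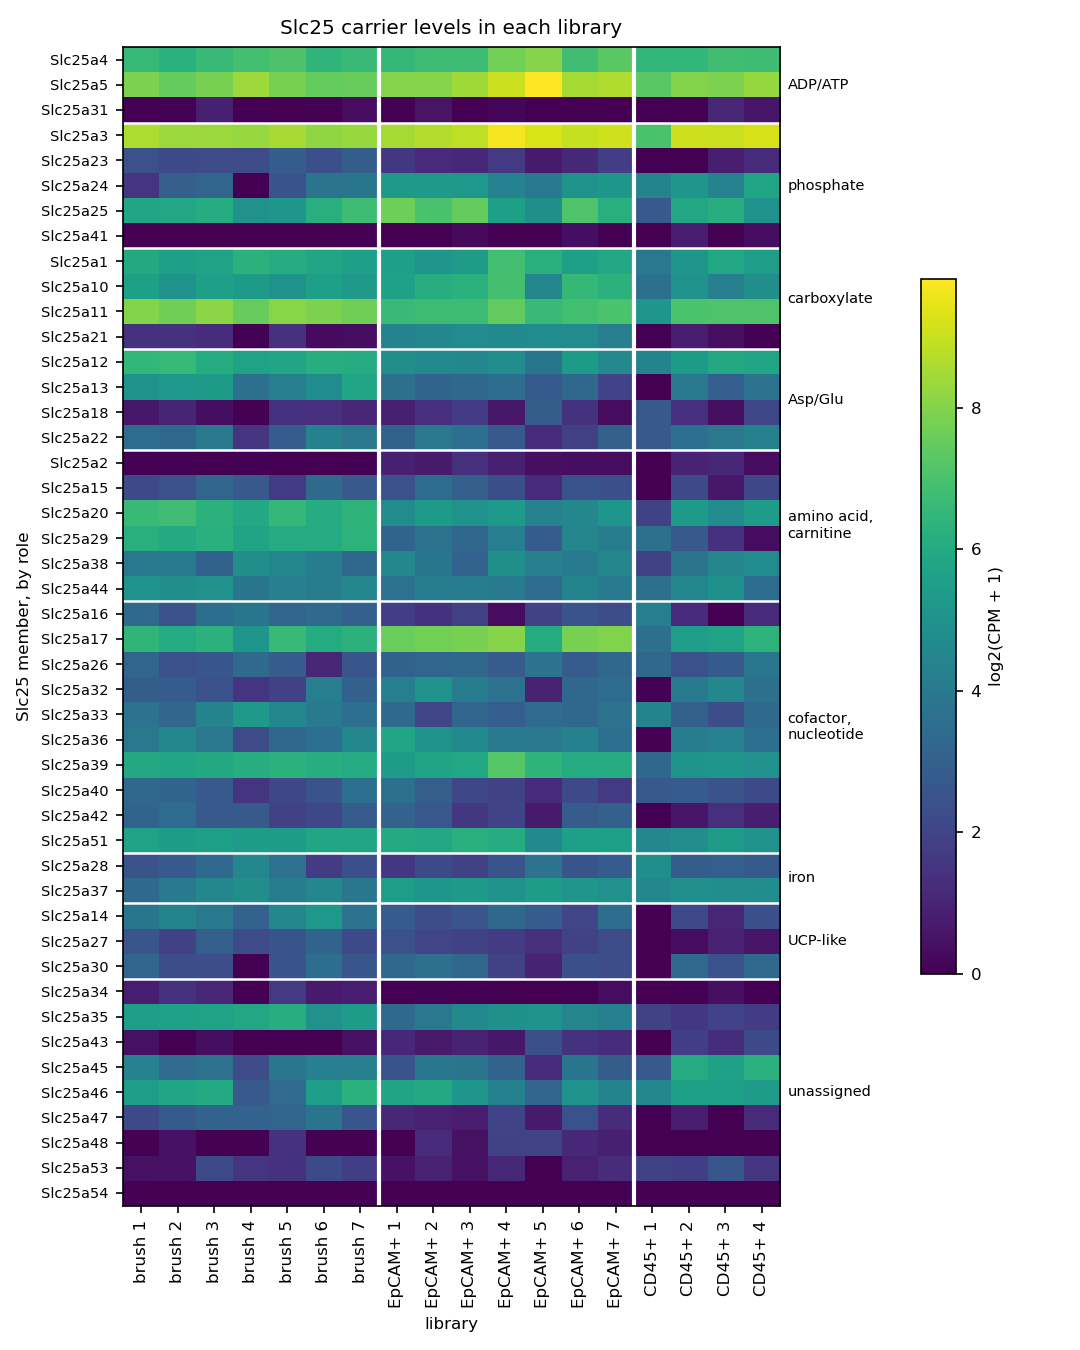
Each row is 1 of 46 Slc25 members, grouped by role, each column is 1 library, and color gives log2(CPM + 1). Slc25a29, Slc25a20 and Slc25a12 are brighter across the 7 brush libraries, Slc25a21 and Slc25a17 across the EpCAM+ libraries, and Slc25a45 across most CD45+ libraries.

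Per length, measured as TPM, a few members made up most of the family's transcripts in every group. The ADP/ATP carrier Slc25a5 averaged 664 ± 121 TPM in brush, 879 ± 202 TPM in EpCAM+ and 483 ± 221 TPM in CD45+ cells (SD, n = 7, 7 and 4). The phosphate carrier Slc25a3 averaged 442 ± 139 TPM in brush, 515 ± 161 TPM in EpCAM+ and 479 ± 251 TPM in CD45+ cells. Next in brush cells came the oxoglutarate/malate carrier Slc25a11 with 220 ± 73 TPM, and next in EpCAM+ cells the peroxisomal carrier Slc25a17 with 131 ± 52 TPM. Slc25a4, Slc25a20, Slc25a39, Slc25a17 and Slc25a1 followed in brush cells with means of 70.2, 67.3, 61.9, 59.8 and 54.7 TPM, and these neighbours lay within each other's SD.

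Slc25a3, Slc25a4 and Slc25a5, the carriers of phosphate and of ADP and ATP that serve ATP synthesis, together held 54.1 to 67.8% of the family's TPM in the 7 brush libraries. They held 64.0 to 87.2% of it in EpCAM+ and 69.9 to 74.6% in CD45+ libraries. The highest brush value came from brush 4 and the highest EpCAM+ value from EpCAM+ 5. The summed TPM of the family overlapped between the epithelial groups. It was 1063 to 2705 in brush (median 2126), 1368 to 3055 in EpCAM+ (median 2001) and 431 to 1958 in CD45+ libraries. The family's summed CPM was 1699 to 1938 in brush, 1847 to 2875 in EpCAM+ and 729.8 to 1913 in CD45+ libraries. The brush and EpCAM+ ranges overlapped in part. Brush 1, 3 and 5 (1938, 1881 and 1878) lay within the EpCAM+ range, and EpCAM+ 1 and 2 (1847 and 1898) within the brush range.

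**Figure D2:**
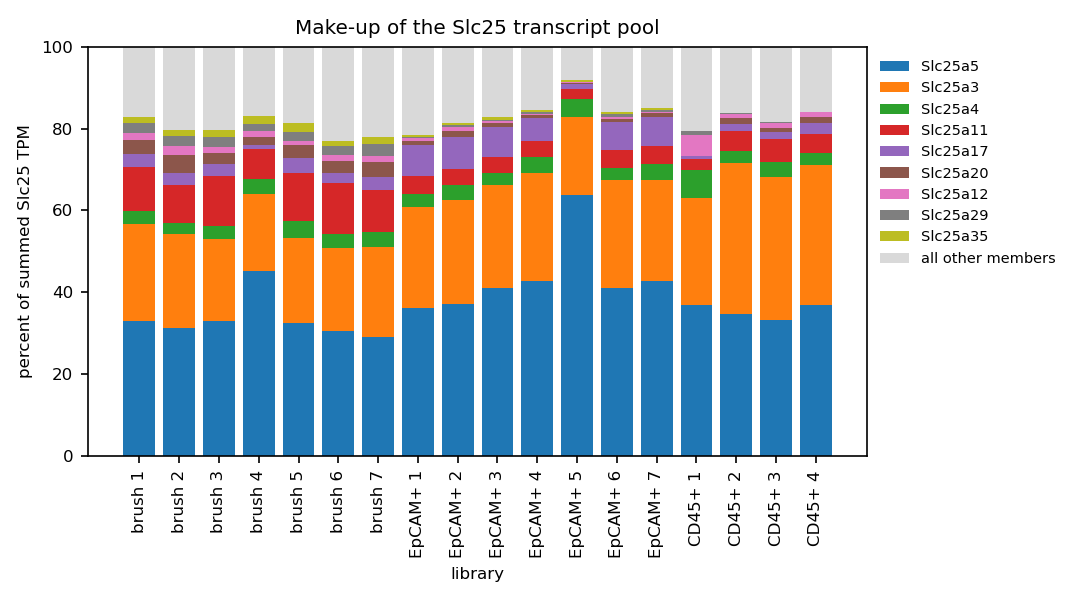
Stacked bars give the percent of the summed Slc25 TPM held by 9 named members and by all others (grey) in each library. Slc25a11 (red), Slc25a20 (brown), Slc25a29 (dark grey) and Slc25a35 (olive) take wider bands in brush bars, and Slc25a17 (purple) a wider band in EpCAM+ bars.

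Of the 47 members, 39 passed the filter on low counts and were tested together with 13418 genes in all. In brush against EpCAM+ cells 11 members were higher and 6 lower by edgeR's quasi-likelihood test at an adjusted p below 0.05. That is 43.6% of those tested, beside 40.3% of all genes, so the share called was near the background. By direction it was 28.2% higher beside 18.3% of all genes, and 15.4% lower beside 22.0%. The groups did not overlap in CPM for 9 members, or 23.1%, beside 20.3% of all genes. The median log2 fold change was 0.41 over the tested members and -0.06 over all tested genes. Leaving out brush 4, EpCAM+ 5 and CD45+ 1 gave 11 higher and 9 lower, beside 21.6% and 23.6% of all genes. Leaving out ribosomal RNA genes gave 11 and 6, beside 18.2% and 22.2% of all genes. Club and goblet and basal cell markers were higher in every EpCAM+ than in every brush library. Ciliated cell markers overlapped, at 299 to 701 CPM in brush (median 395) and 436 to 808.5 CPM in EpCAM+ libraries (median 497). The part of these markers in the calls was not tested.

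In brush against CD45+ cells 11 members were higher and 3 lower, 35.9% of those tested beside 45.8% of all genes, with 23.4% of all genes higher and 22.4% lower. The median log2 fold change was 0.55 for the members and 0.05 for all genes. For 12 members (30.8%, beside 30.5% of all genes) the groups did not overlap. Without those same 3 libraries the count was 14 higher and 5 lower, while the share of all genes called was 51.7%. In EpCAM+ against CD45+ cells 10 members were higher and 4 lower, again 35.9%, beside 40.5% of all genes (22.5% higher, 18.1% lower), and 7 members (17.9%, beside 27.2% of all genes) did not overlap. The median log2 fold change of EpCAM+ over CD45+ cells was 0.3 for the members and 0.08 for all genes. All 3 comparisons share libraries, so their values are given side by side and not as separate evidence.

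**Figure D3:**
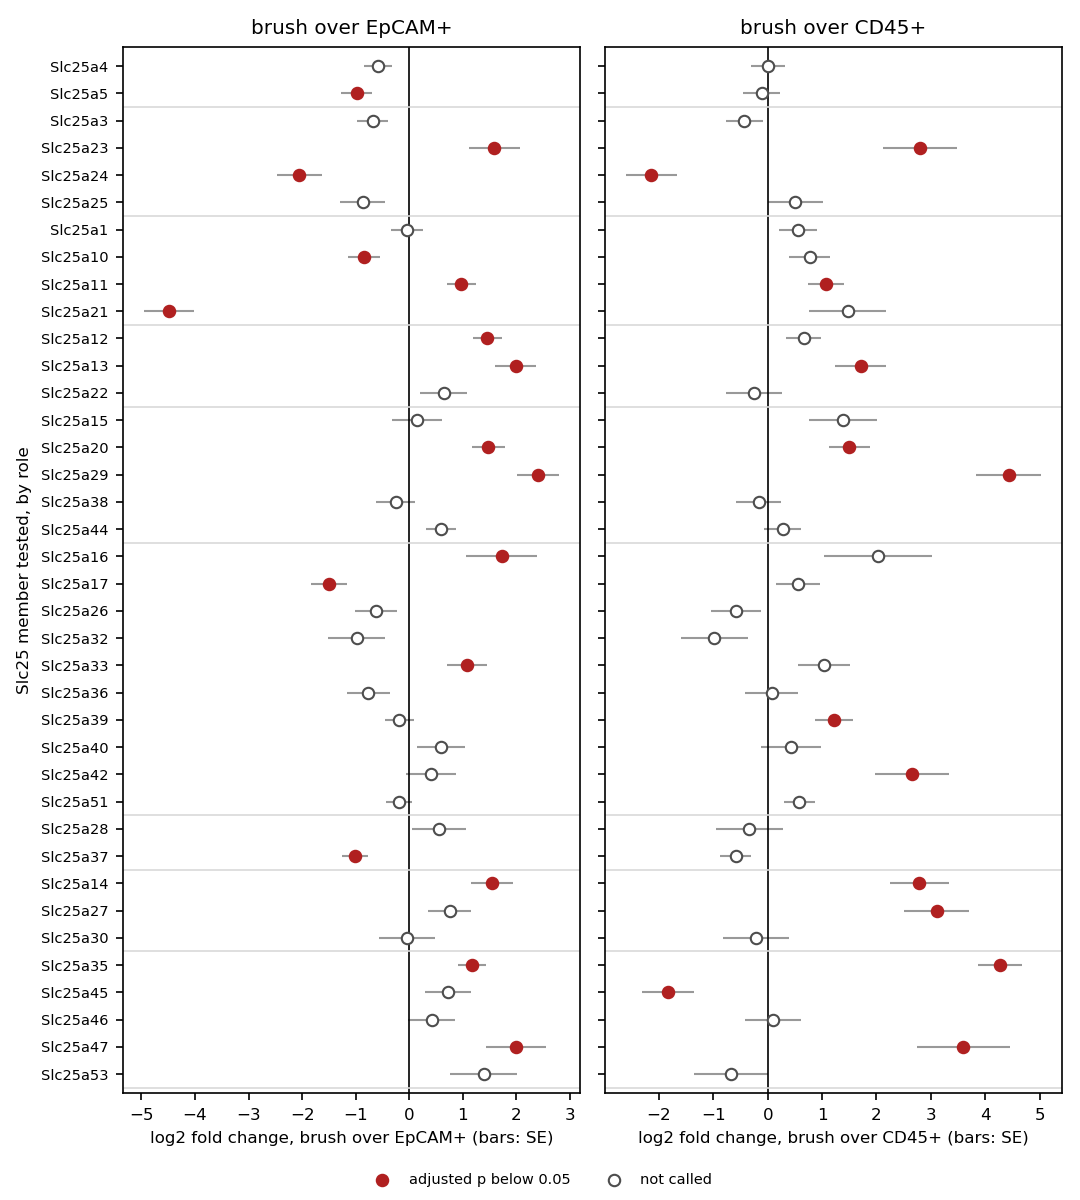
Points give the log2 fold change of each of 38 tested members, with SE bars, for brush over EpCAM+ (left) and brush over CD45+ (right); filled points passed an adjusted p of 0.05. Slc25a29 lies to the right in both panels, at 2.41 and 4.43, and Slc25a24 to the left in both, at -2.05 and -2.14, whereas Slc25a21 lies far to the left only in the left panel, at -4.49.

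Among carriers of amino acids and carnitine, the basic amino acid carrier Slc25a29 and the carnitine/acylcarnitine carrier Slc25a20 were higher in brush cells than in both other groups. Slc25a29, which moves arginine and lysine and lies at chr12:108825873-108835883 on the minus strand of GRCm38, had 52.8 CPM in its lowest, 65.9 in its median and 79.6 in its highest brush library. Its EpCAM+ libraries had 6.17, 11.7 and 21.05 CPM by the same 3 measures, and the 4 CD45+ libraries had 11.5, 5.73, 1.64 and 0.254 CPM. Every brush library thus exceeded every other library. The difference on the log2 scale was 2.41 ± 0.39 (SE) over EpCAM+ cells, or 5.30-fold (edgeR adjusted p = 2.7e-05), and 4.43 ± 0.60 over CD45+ cells, or 21.6-fold (edgeR adjusted p = 1.85e-06). EpCAM+ cells were themselves above CD45+ cells, by 2.03 ± 0.56 on the log2 scale (edgeR adjusted p = 0.00536), with CD45+ 1, at only 4 counts, inside the EpCAM+ range.

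Slc25a20 brings acylcarnitines into the matrix for fatty acid oxidation. It ranged over 60.3 to 110.3 CPM in brush libraries (median 82.7) and 19.7 to 39.5 CPM in EpCAM+ libraries (median 32.1). CD45+ libraries had 2.87, 39.6, 25.8 and 42.7 CPM, all below the brush range. Its log2 fold change was 1.48 ± 0.31 over EpCAM+ (edgeR adjusted p = 0.000419) and 1.50 ± 0.38 over CD45+ cells (edgeR adjusted p = 0.00212). The ornithine carrier Slc25a15, the glycine carrier Slc25a38 and the branched-chain amino acid carrier Slc25a44 did not pass in either brush comparison, with log2 fold changes over EpCAM+ of 0.15, -0.25 and 0.60.

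Upstream sequences are shown for 3 members chosen after their values were seen, since Slc25a29 and Slc25a20 were high in brush cells and Slc25a21, described with the carboxylate carriers, was high in EpCAM+ cells. They are RefSeq promoter windows of GRCm38.p6, cut where the annotated gene begins. The windows lie at chr12:108835884-108836126 (minus strand) for Slc25a29, chr9:108661886-108662087 (plus strand) for Slc25a20 and chr12:57197473-57197722 (minus strand) for Slc25a21. Capitals mark a CCAAT box on either strand in Slc25a29 and Slc25a21, and the GABPA motif in Slc25a20.
Slc25a29: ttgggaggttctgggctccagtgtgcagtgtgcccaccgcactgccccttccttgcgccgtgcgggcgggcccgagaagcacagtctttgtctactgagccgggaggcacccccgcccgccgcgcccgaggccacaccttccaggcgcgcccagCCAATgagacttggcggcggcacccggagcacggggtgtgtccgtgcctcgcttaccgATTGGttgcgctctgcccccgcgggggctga
Slc25a20: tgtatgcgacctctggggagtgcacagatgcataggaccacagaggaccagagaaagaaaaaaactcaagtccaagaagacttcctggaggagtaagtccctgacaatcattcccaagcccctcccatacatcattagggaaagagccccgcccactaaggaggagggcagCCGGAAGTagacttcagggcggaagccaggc
Slc25a21: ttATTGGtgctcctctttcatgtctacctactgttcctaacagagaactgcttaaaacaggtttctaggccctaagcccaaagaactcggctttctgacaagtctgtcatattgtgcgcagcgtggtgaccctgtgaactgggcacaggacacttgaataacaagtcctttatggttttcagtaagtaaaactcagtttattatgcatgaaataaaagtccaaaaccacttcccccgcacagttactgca

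The Slc25a29 window held 70.8% G and C and 24 CpG dinucleotides in 243 bases, against 43.2% and 4 in the 250 bases of Slc25a21 and 54.0% and 4 in the 202 bases of Slc25a20. The Slc25a29 window runs past the annotated start of Slc25a47 at position 108836046. Among cut windows of members called higher in brush than in EpCAM+ cells, G and C ran from 46.5% (Slc25a14) to 70.8% (Slc25a29). For members called lower it ran from 43.2% (Slc25a21) to 72.8% (Slc25a24). Base composition was not tested against level. Motifs were searched on both strands in 46 full windows of 36 of the 47 members, which were not cut at the gene start. Matches can therefore lie outside cut stretches such as those printed above. The NRF1 motif was found for Slc25a3 and Slc25a31 and in 4.6% of all 32851 promoters. GABPA's CCGGAAGT was found for Slc25a20 and in 3.89% of promoters. The estrogen-related receptor motif TCAAGGTCA (0.423% of promoters) and the octamer ATGCAAAT (1.74%), read by Pou2f3, the factor that brush cells depend on, matched no member. CCAAT, searched after the sequences were read, was found for 19 members and in 37.4% of promoters. Members are counted as genes with a match in any of their windows and the background per promoter, so these figures are in unlike units. A match describes these letters in these windows and shows no binding.

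The aspartate/glutamate carriers Slc25a12 and Slc25a13, calcium-regulated parts of the malate-aspartate shuttle, were both higher in brush than in EpCAM+ cells. Slc25a13 ranged over 11.3 to 55.5 CPM in brush libraries (median 31.2) and 2.97 to 11.2 CPM in EpCAM+ libraries (median 8.65). CD45+ libraries had 0, 14.7, 6.57 and 12.5 CPM. The brush and EpCAM+ ranges did not overlap, by a narrow margin, while 2 CD45+ libraries reached the lowest brush libraries. Its log2 fold change was 1.99 ± 0.38 over EpCAM+ (edgeR adjusted p = 0.000187) and 1.71 ± 0.47 over CD45+ cells (edgeR adjusted p = 0.00475).

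Slc25a12 ranged over 49.0 to 94.4 CPM in brush libraries (median 67.7) and 13 to 40.4 CPM in EpCAM+ libraries (median 25.1), and had 20.1, 39.6, 59.6 and 54.1 CPM in CD45+ libraries. It was 2.75-fold higher in brush than in EpCAM+ cells, a log2 fold change of 1.46 ± 0.27 (edgeR adjusted p = 0.000117). Over CD45+ cells its log2 fold change of 0.66 ± 0.32 did not pass (edgeR adjusted p = 0.0974). Slc25a12 made up 66.2% ± 4.5 of the summed TPM of this pair in brush, against 89.1% ± 8.5 in CD45+ libraries (SD, n = 7 and 4; exact two-sided permutation test, p adjusted over 10 shares = 0.0202). Computed from counts per effective length, that difference was -16.05 points and did not pass (adjusted p = 0.0727). Against EpCAM+ libraries, at 75.4% ± 14 (SD, n = 7), the difference did not pass by the exact permutation test (adjusted p = 0.186), and it passed without EpCAM+ 5 (-14.05 points, adjusted p = 0.0117).

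The glutamate carriers Slc25a22 and Slc25a18 showed no called difference. Slc25a22 ranged over 1.89 to 18.8 CPM in brush (median 10.2), 1.23 to 14 CPM in EpCAM+ (median 7.01) and was 5.75, 11, 13.9 and 18.8 CPM in CD45+ libraries. Slc25a18 had 28, 53 and 24 counts in brush, EpCAM+ and CD45+ libraries together and was not tested. Slc25a22 held 98.3% ± 3.4 of the pair's TPM in brush and 87.5% ± 15.7 in EpCAM+ libraries (SD, n = 7 each), a difference that did not pass (exact permutation test, adjusted p = 0.0758). Slc25a18 had at most 1.14 TPM in brush and 1.2 TPM in EpCAM+ libraries, so this share turns on few reads. The exons of Slc25a18 share 32 bases with Atp6v1e1 on the other strand. Atp6v1e1 averaged 203 CPM in brush and 102.8 CPM in EpCAM+ libraries, and its part was not tested.

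Of the di- and tricarboxylate carriers, Slc25a11 was higher and Slc25a10 and Slc25a21 were lower in brush than in EpCAM+ cells. Slc25a11, the oxoglutarate/malate exchanger of the malate-aspartate shuttle, ranged over 186.6 to 275.5 CPM in brush libraries (median 238) and 97.2 to 176 CPM in EpCAM+ libraries (median 105). The CD45+ libraries had 34.5, 129, 137 and 137 CPM. All brush libraries lay above all others, and the log2 fold change was 0.97 ± 0.27 over EpCAM+ (edgeR adjusted p = 0.00535) and 1.07 ± 0.33 over CD45+ cells (edgeR adjusted p = 0.00939). Its exons share 189 bases with Rnf167 on the other strand, and Rnf167 itself had a log2 fold change of -0.17 over EpCAM+ cells (edgeR adjusted p = 0.654).

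Slc25a21, which carries oxoadipate and related acids of lysine and tryptophan breakdown, was the member with the largest difference between the epithelial groups. It had 0 to 1.63 CPM in brush libraries (median 1.35, 28 counts in all), against 17.5 to 26.5 CPM in EpCAM+ libraries (median 24.25, 714 counts). CD45+ libraries had 0, 0.748, 0.329 and 0 CPM, 6 counts in all. It was 22.4-fold lower in brush than in EpCAM+ cells (log2 fold change -4.49 ± 0.47, edgeR adjusted p = 5.3e-08) and 62.3-fold higher in EpCAM+ than in CD45+ cells (5.96 ± 0.70, edgeR adjusted p = 2.18e-07), with no overlap in either. Its gene, at chr12:56712634-57197472 on the minus strand, overlaps Pax9 on the other strand by 189 exon bases, and Pax9 was also lower in brush cells, at 10.9 against 73.5 CPM (log2 fold change -2.78, edgeR adjusted p = 4.65e-06). Whether reads of one were counted for the other was not tested.

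The dicarboxylate carrier Slc25a10 averaged 40.0 ± 6.5 CPM in brush, 72.1 ± 31.0 CPM in EpCAM+ and 22.5 ± 9.7 CPM in CD45+ libraries (SD, n = 7, 7 and 4). It was lower in brush than in EpCAM+ cells by a log2 fold change of -0.85 ± 0.30 (edgeR adjusted p = 0.0264). That call was lost without brush 5 (adjusted p = 0.0523), EpCAM+ 4 (0.0621) or EpCAM+ 6 (0.0526), by voom (0.0668) and with the replicate block (0.0686), and its adjusted p over 28 alternatives ran from 0.000896 to 0.0686. EpCAM+ cells exceeded CD45+ cells by 1.62 ± 0.38 (edgeR adjusted p = 0.00121). The citrate carrier Slc25a1 passed in no comparison, at 57.7 ± 12.5 CPM in brush, 58.6 ± 26.8 CPM in EpCAM+ and 37.3 ± 17.5 CPM in CD45+ libraries, with log2 fold changes of -0.04 and 0.55 for brush over EpCAM+ and CD45+ cells.

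**Figure D4:**
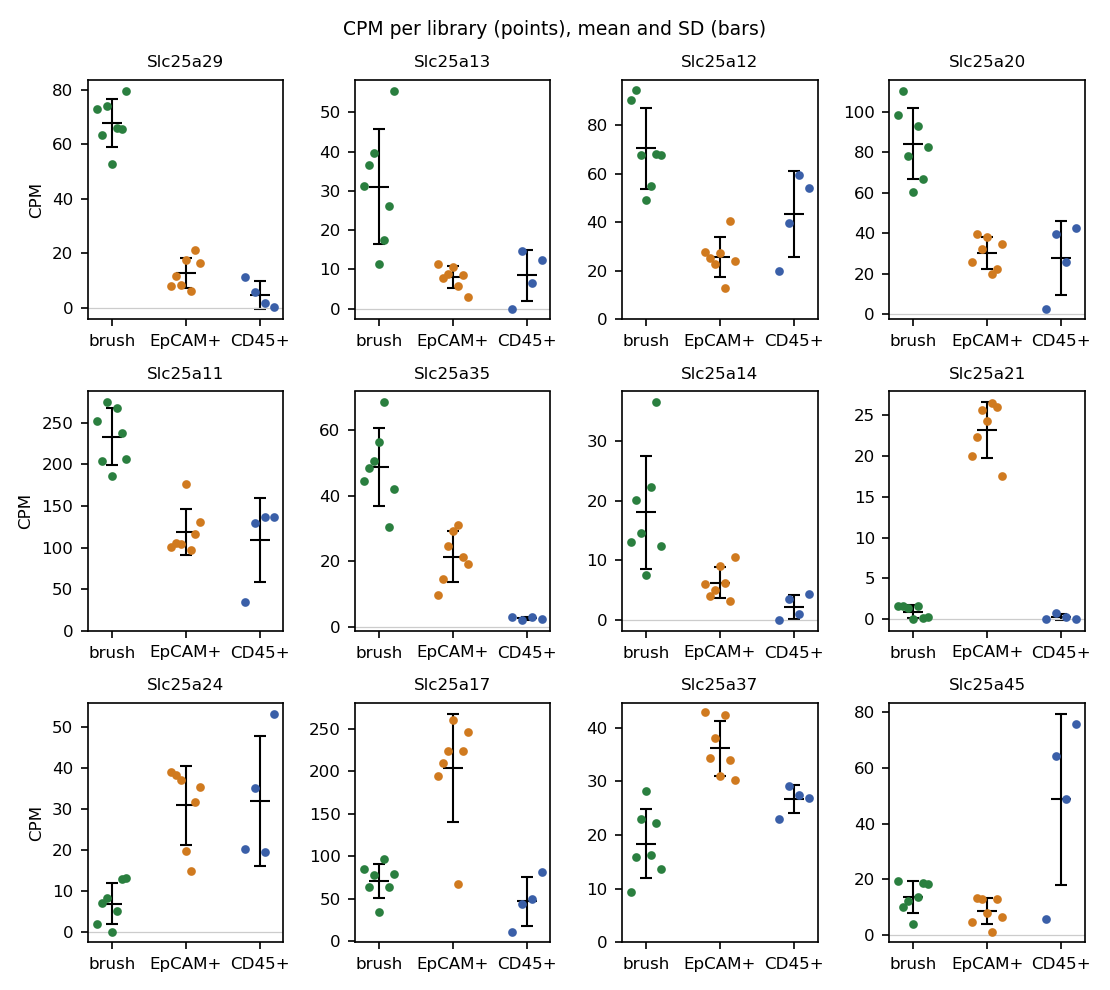
Each panel shows CPM of 1 member in every library (points) with the mean and SD of each group (bars), for brush, EpCAM+ and CD45+ from left to right. The 7 brush points of Slc25a29 (52.8 to 79.6 CPM) lie above all others, and the 7 EpCAM+ points of Slc25a21 (17.5 to 26.5 CPM) lie above all others.

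The ADP/ATP carriers, which exchange matrix ATP for cytosolic ADP, were not raised in brush cells. Slc25a5 ranged over 178.6 to 329.9 CPM in brush (median 223), 259 to 906 CPM in EpCAM+ (median 357), and was 158, 252, 233.5 and 311 CPM in CD45+ libraries. It was lower in brush than in EpCAM+ cells by a log2 fold change of -0.98 ± 0.29 (edgeR adjusted p = 0.0103) with overlapping ranges, and its log2 fold change over CD45+ cells was -0.11 ± 0.34 (edgeR adjusted p = 0.822). A processed copy, Slc25a5-ps, is annotated, and how reads shared with such copies were assigned is not given. Slc25a4 ranged over 77.0 to 132.8 CPM in brush (median 96.5) and 93.4 to 260.1 CPM in EpCAM+ (median 112), with 89.1, 89.7, 111.3 and 107.9 CPM in CD45+ libraries; its log2 fold change over EpCAM+ cells was -0.58 ± 0.26 (edgeR adjusted p = 0.079).

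As a share of the TPM of both ADP/ATP carriers, Slc25a4 took 9.50% ± 1.44 in brush and 7.65% ± 0.95 in EpCAM+ libraries (SD, n = 7 each), a difference of 1.86 points (exact two-sided permutation test, adjusted p = 0.0315). The call was lost when brush 3, 5, 6 or 7 or EpCAM+ 3, 5 or 6 was left out, at differences of 1.53 to 1.89 points. In CD45+ libraries the share was 10.3% ± 3.8 (SD, n = 4; exact permutation test against brush, adjusted p = 0.648).

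The phosphate carrier Slc25a3 ranged over 295.7 to 390.5 CPM in brush (median 321) and 359 to 823 CPM in EpCAM+ (median 499), with 126, 546, 518 and 595 CPM in CD45+ libraries. Its log2 fold change of -0.68 ± 0.29 over EpCAM+ cells did not pass (edgeR adjusted p = 0.0683) but passed in 6 of 28 alternatives, among them without CD45+ 1 (adjusted p = 0.0137), with an adjusted p between 0.0121 and 0.144 over all of them.

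The ATP-Mg/phosphate carriers, calcium-regulated proteins that set the adenine nucleotide content of the matrix, differed in opposite directions. Slc25a24 had 0 to 13 CPM in brush libraries (median 6.89), with the 0 in brush 4, against 14.8 to 38.9 CPM in EpCAM+ libraries (median 35.3). CD45+ libraries had 20.1, 34.9, 19.5 and 53.1 CPM, so every brush library lay below every other library. The log2 fold change was -2.05 ± 0.42 over EpCAM+ (edgeR adjusted p = 0.000343) and -2.14 ± 0.47 over CD45+ cells (edgeR adjusted p = 0.000549). Slc25a23 ran the other way at a low level, with 3.45 to 6.54 CPM in brush (median 4.27), 0.617 to 2.43 CPM in EpCAM+ (median 1.27) and 0, 0, 0.766 and 1.27 CPM in CD45+ libraries. It was higher in brush cells by 1.59 ± 0.48 over EpCAM+ (edgeR adjusted p = 0.0104) and 2.80 ± 0.68 over CD45+ cells (edgeR adjusted p = 0.0016).

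Slc25a25 ranged over 30.2 to 109.3 CPM in brush (median 58.6), 28.7 to 200.5 CPM in EpCAM+ (median 128) and was 5.75, 57.3, 69.2 and 32.3 CPM in CD45+ libraries, with no called difference for brush cells. Its exons share 379 bases with Naif1 on the other strand, and the part of that overlap was not tested. Its higher level in EpCAM+ than in CD45+ cells (1.38 ± 0.52, edgeR adjusted p = 0.0378) was lost in 8 of 28 alternatives, among them without CD45+ 1 (adjusted p = 0.0902), CD45+ 4 (0.105), and EpCAM+ 1 (0.0758), 2 (0.052), 3 (0.0697) or 6 (0.0579). Of the TPM of Slc25a23, Slc25a24 and Slc25a25, Slc25a24 held 8.85% ± 4.97 in brush, 22.4% ± 6.5 in EpCAM+ and 48.0% ± 23.8 in CD45+ libraries (SD, n = 7, 7 and 4). Exact two-sided permutation tests gave adjusted p = 0.0117 for brush against EpCAM+ and 0.0202 against CD45+ libraries.

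**Figure D5:**
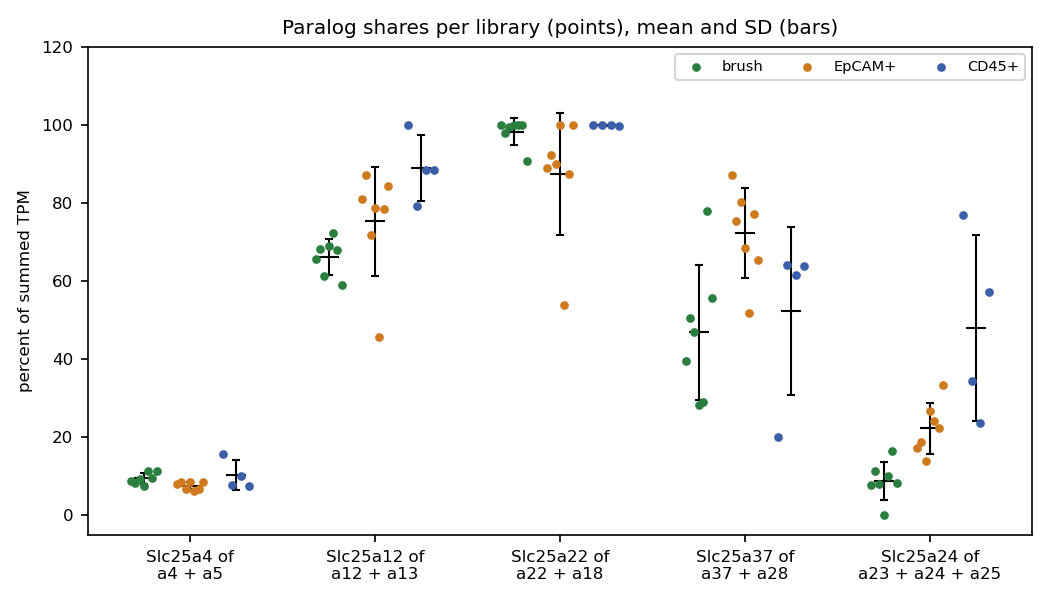
Points give the percent of the summed TPM of related carriers held by the named member in each library, with mean and SD bars, for brush, EpCAM+ and CD45+ from left to right in each set. Slc25a24 and Slc25a37 take smaller shares in brush than in EpCAM+ libraries (means 8.85% against 22.4%, and 46.9% against 72.3%).

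Carriers of cofactors and nucleotides, 11 members that were all tested, gave 2 higher and 1 lower in brush against EpCAM+ cells, and 2 were higher against CD45+ cells. Slc25a17, the peroxisomal carrier of coenzyme A, FAD and NAD, ranged over 33.9 to 96.3 CPM in brush (median 77.5) and 67.6 to 260.3 CPM in EpCAM+ libraries (median 223). CD45+ libraries had 11.5, 44.4, 50.3 and 81.3 CPM. The EpCAM+ libraries other than EpCAM+ 5 had at least 194.8 CPM, above all brush libraries. On the log2 scale it differed by -1.50 ± 0.33 in brush over EpCAM+ cells (edgeR adjusted p = 0.000868) and 2.06 ± 0.42 in EpCAM+ over CD45+ cells (edgeR adjusted p = 0.000324).

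The glutathione carrier Slc25a39 averaged 65.0 ± 7.8 CPM in brush, 73.5 ± 36.0 CPM in EpCAM+ and 26.5 ± 12 CPM in CD45+ libraries, and both epithelial groups passed against CD45+ cells (log2 fold changes 1.21 and 1.39, edgeR adjusted p = 0.00702 and 0.00268). Its relative Slc25a40 passed in no comparison. The coenzyme A carrier Slc25a42 had means of 5.93, 4.56 and 0.698 CPM in brush, EpCAM+ and CD45+ libraries and was also higher in both epithelial groups (2.65 and 2.24, edgeR adjusted p = 0.00241 and 0.00902).

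The pyrimidine nucleotide carrier Slc25a33 averaged 18.4 ± 9.9 CPM in brush and 8.30 ± 2.71 CPM in EpCAM+ libraries (SD, n = 7 each), with a log2 fold change of 1.08 ± 0.37 (edgeR adjusted p = 0.0241). Its call was lost without brush 4 (0.86, adjusted p = 0.0596) or EpCAM+ 4 (1.00, adjusted p = 0.0519), in a range of 0.0168 to 0.0596 over all alternatives. Slc25a16 averaged 8.95 CPM in brush against 2.67 CPM in EpCAM+ libraries, and its call (1.73 ± 0.66, edgeR adjusted p = 0.0413) was lost in 12 of 27 alternatives, 10 of which left out 1 library: any brush library but brush 2, or EpCAM+ 1, 2, 3 or 4 (adjusted p up to 0.0792). Slc25a51, the NAD carrier, was higher in EpCAM+ than in CD45+ cells (54.0 against 31.0 CPM, 0.77 ± 0.30, edgeR adjusted p = 0.0409), a call lost in 9 of 28 alternatives, including without CD45+ 1 (adjusted p = 0.0799), 2 (0.118) or 4 (0.0827) and without EpCAM+ 1 (0.0646), 2 (0.0567) or 3 (0.0815). Slc25a26, Slc25a32 and Slc25a36, carriers of S-adenosylmethionine, folate or FAD, and pyrimidine nucleotides, averaged 5.65, 6.70 and 13.5 CPM in brush against 8.25, 14.1 and 24.1 CPM in EpCAM+ libraries and did not pass.

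The mitoferrins bring iron into the matrix for heme and iron-sulfur clusters. Slc25a37, mitoferrin 1, ranged over 9.43 to 28.3 CPM in brush (median 16.3) and 30.2 to 42.9 CPM in EpCAM+ libraries (median 34.4), with no overlap, and had 23.0, 29.2, 27.5 and 26.9 CPM in CD45+ libraries. Its log2 fold change over EpCAM+ cells was -1.01 ± 0.24, or 2.02-fold lower in brush (edgeR adjusted p = 0.00165). Slc25a28, mitoferrin 2, had 2.35 to 22.6 CPM in brush (median 5.67), 2.00 to 12.3 CPM in EpCAM+ (median 4.85) and 28.7, 6.48, 6.79 and 5.84 CPM in CD45+ libraries, with no called difference. Slc25a37 held 46.9% ± 17.3 of the TPM of the pair in brush and 72.3% ± 11.6 in EpCAM+ libraries (SD, n = 7 each), a difference of -25.4 points (exact two-sided permutation test, adjusted p = 0.0262) that was -22.4 points without brush 5 (adjusted p = 0.0525). Erythroid markers, which mark the cells best known for mitoferrin 1, summed to 0 to 13.3 CPM in brush, 0.802 to 40.7 CPM in EpCAM+ and 2.87 to 46.4 CPM in CD45+ libraries, and their part was not tested.

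Of the relatives of the uncoupling proteins, Slc25a14 was higher in brush than in both other groups. It had 7.54 to 36.5 CPM in brush (median 14.6), 3.17 to 10.5 CPM in EpCAM+ (median 6.01) and 0, 3.49, 1.095 and 4.32 CPM in CD45+ libraries, so that brush libraries cleared the CD45+ range but overlapped the EpCAM+ range. The log2 fold change was 1.55 ± 0.39 over EpCAM+ (edgeR adjusted p = 0.00275) and 2.79 ± 0.55 over CD45+ cells (edgeR adjusted p = 0.000181). Slc25a27 averaged 4.98, 2.98 and 0.408 CPM in brush, EpCAM+ and CD45+ libraries and passed for both epithelial groups against CD45+ cells (3.11 and 2.35, edgeR adjusted p = 0.000143 and 0.00217). Slc25a30 was 5.28, 5.85 and 5.74 CPM in the same groups and passed in none of the comparisons.

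Among members whose substrate is less settled, Slc25a35 was strongly epithelial. It ranged over 30.5 to 68.6 CPM in brush (median 48.6) and 9.62 to 31.2 CPM in EpCAM+ libraries (median 21.3), with 2.87, 1.99, 2.96 and 2.29 CPM in CD45+ libraries. Only the ends of the brush and EpCAM+ ranges met, and all epithelial libraries exceeded the CD45+ libraries. The log2 fold change was 1.18 ± 0.26 over EpCAM+ (edgeR adjusted p = 0.000944) and 4.27 ± 0.41 over CD45+ cells (edgeR adjusted p = 1.17e-08). Its exons share 1151 bases, 31.3% of their length, with Rangrf on the other strand. Rangrf averaged 7.52 CPM in brush, 9.51 CPM in EpCAM+ and 0.767 CPM in CD45+ libraries, with log2 fold changes of -0.35 (edgeR adjusted p = 0.511) and 2.86 (edgeR adjusted p = 0.000336) for brush over each, and its part was not tested.

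Slc25a47 lies head to head with Slc25a29 on chromosome 12, their annotated ends 162 bases apart. It averaged 7.24 ± 2.89 CPM in brush, 1.76 ± 1.49 CPM in EpCAM+ and 0.504 ± 0.620 CPM in CD45+ libraries (SD, n = 7, 7 and 4), and was higher in brush cells by 2.00 ± 0.56 over EpCAM+ (edgeR adjusted p = 0.00643) and 3.60 ± 0.85 over CD45+ cells (edgeR adjusted p = 0.00116). The annotated transcripts that start next to Slc25a29 are noncoding ones of Slc25a47, and its coding transcripts start at positions 108851129 and 108851139.

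Slc25a45 was highest in CD45+ cells, at 5.75, 64.3, 48.8 and 75.9 CPM, against 3.77 to 19.4 CPM in brush (median 13.6) and 1.23 to 13.4 CPM in EpCAM+ libraries (median 7.82). CD45+ 1, at only 2 counts, fell within the epithelial range and the other CD45+ libraries lay above that range. The log2 fold change was -1.84 ± 0.48 in brush (edgeR adjusted p = 0.00295) and -2.57 ± 0.48 in EpCAM+ over CD45+ cells (edgeR adjusted p = 0.000129). The outer membrane protein Slc25a46 averaged 42.3, 32.5 and 39.5 CPM in brush, EpCAM+ and CD45+ libraries and passed in no comparison. Slc25a53 had at most 5.26 CPM in any library, and its lower level in EpCAM+ than in CD45+ cells (-2.05 ± 0.69, edgeR adjusted p = 0.0193) was lost without CD45+ 3 (-1.52, adjusted p = 0.162).

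The other 8 members were too low to test. Slc25a54 had no count in any library. The testis ADP/ATP carrier Slc25a31, the ornithine carrier Slc25a2 and Slc25a41 had 5, 0 and 0 counts over the brush libraries, 3, 22 and 2 over the EpCAM+ libraries, and 12, 16 and 4 over the CD45+ libraries. A count of 0 over the brush libraries allows up to 0.119 CPM (3 counts over the group's total count, without TMM scaling, counting error only). Slc25a34 had 29, 1 and 3 counts, Slc25a43 6, 40 and 37 counts and Slc25a48 5, 46 and 0 counts in brush, EpCAM+ and CD45+ libraries, and Slc25a18 is given above.

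Genes that work with these carriers, in 13 lists, gave 14 higher and 17 lower of 94 tested in brush against EpCAM+ cells. That is 14.9% and 18.1%, beside 18.3% and 22.0% of all genes, so neither share was above the background, and the counts of the single lists below are given as descriptions. Of 7 redox shuttle enzymes 2 were higher and 1 lower: the cytosolic glycerol-3-phosphate dehydrogenase Gpd1 averaged 42.6 ± 7.0 CPM in brush and 4.26 ± 2.32 CPM in EpCAM+ libraries (log2 fold change 3.32 ± 0.34, edgeR adjusted p = 1.31e-07), and its mitochondrial partner Gpd2 30.4 against 86.6 CPM (-1.50 ± 0.30, edgeR adjusted p = 0.000304). Gpd1 had no count in CD45+ libraries. Of 9 calcium transport genes 2 were higher and 1 lower. Mcub, the inhibitory subunit of the calcium uniporter, averaged 203.9 ± 67.5 CPM in brush against 4.07 ± 2.10 CPM in EpCAM+ cells (5.63 ± 0.42, edgeR adjusted p = 4.26e-10), but 138.7 CPM in CD45+ cells (0.54 ± 0.40, edgeR adjusted p = 0.297). The sodium/calcium exchanger gene Slc8b1 averaged 1.81 against 10.8 CPM (-2.66, edgeR adjusted p = 0.000182).

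In the list of citrate export and lipogenesis, 2 of 8 were higher and 2 lower. Acly, which splits citrate in the cytosol, averaged 506 ± 232 CPM in brush and 59.8 ± 40.0 CPM in EpCAM+ libraries (3.08 ± 0.48, edgeR adjusted p = 1.49e-05), and the isocitrate dehydrogenase Idh1 37.9 against 150 CPM (-1.96, edgeR adjusted p = 0.00149). Of 10 genes of the carnitine system and fatty acid oxidation 2 were higher and 4 lower. The thiolase Acaa2 averaged 50.8 against 171.5 CPM (-1.76, edgeR adjusted p = 2.5e-05), and the low Cpt1c 4.85 against 1.68 CPM (1.57, edgeR adjusted p = 0.0271).

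Heme and iron-sulfur synthesis gave 2 lower and none higher of 11, with a median log2 fold change of -0.23. Alas1, the first enzyme of heme synthesis, averaged 66.1 ± 18 CPM in brush against 556 ± 190 CPM in EpCAM+ cells (-3.06 ± 0.38, edgeR adjusted p = 6.08e-07), and the transferrin receptor gene Tfrc 11.9 against 27.9 CPM (-1.28, edgeR adjusted p = 0.00284). Of 4 ornithine and urea enzymes 2 were lower: Oat, ornithine aminotransferase, averaged 51.6 ± 21.2 against 460 ± 161 CPM (-3.14 ± 0.43, edgeR adjusted p = 3.03e-06) and the arginase Arg1 1.03 against 5.53 CPM (-2.32, edgeR adjusted p = 0.00644). The folate enzyme Mthfd1l was the only one of 4 called, at 18.4 against 3.00 CPM (2.64, edgeR adjusted p = 9.16e-05). Of 4 kinases Ak3 alone was lower, at 64.1 against 151 CPM (-1.22, edgeR adjusted p = 0.00825).

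None of 3 voltage-dependent anion channels of the outer membrane was called in brush against EpCAM+ cells, and neither were the 3 tested carriers of the same fold under other symbols, Ucp2, Mtch1 and Mtch2. Of 9 genes of the machinery that inserts carriers into the inner membrane 1 was called, Agk (11.6 against 6.50 CPM, 0.85, edgeR adjusted p = 0.0263). Pyruvate carrier and sideroflexin genes gave 2 higher and 3 lower of 7, with Sfxn5 at 11.7 against 3.33 CPM (1.83, edgeR adjusted p = 0.00151) and Sfxn4 at 5.35 against 2.10 CPM (1.41, edgeR adjusted p = 0.0251). Of 15 genes of import and biogenesis, 2 were higher and 1 lower. The coactivator genes Ppargc1a and Ppargc1b, which promote mitochondrial biogenesis, differed in opposite directions, at 4.24 against 22.8 CPM (-2.44, edgeR adjusted p = 0.000118) and 6.86 against 2.89 CPM (1.33, edgeR adjusted p = 0.0173). Each of the calls of Sfxn4, Agk, Cpt1c and Ppargc1b was lost without brush 1 (adjusted p = 0.0764, 0.0534, 0.0513 and 0.054). Agk was also lost without brush 3 (0.062), brush 7 (0.0849) or EpCAM+ 7 (0.058), and Cpt1c without brush 3 (0.0519) or brush 6 (0.0658).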

How the data were processed

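RNA from 18 libraries of sorted tracheal cells was sequenced. The submitters' processing notes name RSEM 1.2.21, STAR 2.4.2a, Picard 1.1073, DESeq2 and featureCounts and the build mm10, without saying what each did. The authors deposited a table of whole-number read counts per gene symbol, unnormalized, which was the input of all tests. Per the file headers, an RSEM table per library gives expected counts (fractional estimates, rounded here for 1 alternative), TPM and effective length. The authors' normalized table was not used here. The sources used here do not give the annotation or strand setting of the counting, and coordinates come from GENCODE vM21 on GRCm38.

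All 13418 genes kept by filterByExpr were fitted in 1 model over the 3 groups with edgeR 4.0.16 in R 4.3.3 (TMM scaling, quasi-likelihood F test, Benjamini-Hochberg adjustment, calls at 0.05), and 12909 symbols were left out as too low. CPM are scaled by TMM, except the floor given for a count of 0, and SE is the log2 fold change over the root of F. On counts simulated for brush against EpCAM+ cells, the edgeR test called 35 of 50 genes raised 4-fold and 31 of 44 lowered to 0.25. It called 10 of 50 raised 2-fold, 5 of 45 lowered to 0.5 and 8 of 12833 unchanged genes. Of the 13022 genes fitted there 12833 were unchanged, whereas 40.3% of all genes were called in the measured data. Whether those rates hold for the measured counts was not tested. Shares of summed TPM were compared by exact two-sided permutation tests with p adjusted over 10 shares; the smallest p they can give is 0.000583 for 7 against 7 and 0.00606 for 7 against 4. Counts of 2 libraries of a group differed by a chi-square of at least 6.46 per degree of freedom. So none was counted as a second sequencing of the same library. Whether libraries came from separate animals or cells cannot be told from that value. Alternatives used limma 3.58.1 voom, DESeq2 1.42.0, other scaling, filters and inputs, a replicate block and left-out libraries.

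Values by library are given for the 5 members highest in TPM in brush cells, the 6 largest called changes per comparison among members of at least 10 CPM in a group, and members of the TPM shares, except that the results of 1 member are not reported here. Up to 2 genes of each of 13 pathway lists are named by size of change. Members, lists and rules were chosen with earlier results of these data known. Promoters come from RefSeq, GRCm38.p6. Intervals and floors cover counting error only.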

Additional observations from a re-analysis of the deposited data

Results flagged for a closer look

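In 78 groups of 4 or 7 values, the members chosen for values by library and the 5 TPM shares had 13 in which 1 library stood far from the nearest other relative to the group's range. For independent, normally distributed values the nominal rate is about 1 in 20. The 78 groups share libraries and members, some low CPM rest on few counts, and several shares sit at 100%. That rate therefore need not hold here.

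EpCAM+ 5 accounted for 6 of them. It had 906.1 CPM of Slc25a5 (others 259 to 528), 67.6 CPM of Slc25a17 (others 194.8 to 260.3), 6.48 CPM of Slc25a18 (others 0.270 to 2.23) and 12.3 CPM of Slc25a28 (others 2.00 to 6.20). In the same library Slc25a12 held 45.6% of its pair's TPM (others 71.9 to 87.3%) and Slc25a22 held 53.9% (others 87.4 to 100%).

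CD45+ 1 accounted for 4. It had 126.4 CPM of Slc25a3 (others 518 to 595), 34.5 CPM of Slc25a11 (others 129 to 137) and 28.7 CPM of Slc25a28 (others 5.84 to 6.79), and Slc25a37 held 20.2% of its pair's TPM there (others 61.7 to 64.2%).

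Brush 4 had 329.9 CPM of Slc25a5 (others 178.6 to 233.5). Slc25a22 held 90.9% of its pair's TPM in brush 7 (others 98.0 to 100%) and 99.7% in CD45+ 4 (others at 100%).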

How the results depend on the processing

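No direction of a called member reversed in any alternative run. All 14 calls of brush against CD45+ cells held in every alternative that tested the member, as did 14 of 17 calls against EpCAM+ cells (not Slc25a10, Slc25a16 and Slc25a33) and 10 of 14 for EpCAM+ against CD45+ cells (not Slc25a12, Slc25a25, Slc25a51 and Slc25a53). The cause of those losses was not tested. Some members not called in the main result passed in at least 1 alternative. In brush against EpCAM+ cells these were Slc25a3, Slc25a4, Slc25a25, Slc25a32, Slc25a36 and Slc25a53. In brush against CD45+ cells they were Slc25a3, Slc25a10, Slc25a12, Slc25a15, Slc25a16, Slc25a21, Slc25a33 and Slc25a37. There Slc25a16 had an edgeR adjusted p of 0.00189 without CD45+ 1. In EpCAM+ against CD45+ cells they were Slc25a5, Slc25a14 and Slc25a15. Among the members whose calls held, a minimum of 10 CPM left Slc25a23, Slc25a27, Slc25a42 and Slc25a47 untested. DESeq2 gave 10 lower members for brush against EpCAM+ (6 in the main result) and 5 for brush against CD45+ cells (3 in the main result), beside 21% and 20.7% of all genes (22.0% and 22.4% in the main result). Lower members in brush against CD45+ cells numbered 6 with no filter and 5 without brush 4, EpCAM+ 5 and CD45+ 1, beside 17.8% and 25.9% of all genes. With a minimum of 10 CPM, which tests fewer genes, 7 members were higher in brush than in CD45+ cells (11 in the main result), beside 23.4% of all genes in both. Lower members in EpCAM+ against CD45+ cells numbered 2, not 4, with only those groups fitted, with the replicate block and with RSEM expected counts, beside 16.3%, 15.9% and 16.1% of all genes (18.1% in the main result).

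Leaving out 1 library at a time gave 9 to 12 higher and 5 to 8 lower members for brush against EpCAM+ cells. It gave 11 to 13 and 3 to 4 for brush against CD45+ cells. For EpCAM+ against CD45+ cells it gave 8 to 12 and 2 to 4, the 2 without CD45+ 3. In the same order of comparisons, 36.1 to 42.5%, 41.5 to 49.3% and 36 to 42.3% of all genes were called. The Slc25a12 call of EpCAM+ against CD45+ cells (-0.80, adjusted p = 0.0399) was lost in 15 of 28 alternatives, with adjusted p up to 0.205 without CD45+ 3.

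Leave-one-out differences in share were 1.53 to 2.17 points for Slc25a4, -14.05 to -7.11 for Slc25a12, 5.20 to 12.9 for Slc25a22, -30.6 to -22.3 for Slc25a37 and -15.0 to -11.7 for Slc25a24 in brush against EpCAM+ libraries. Against CD45+ libraries they were -1.735 to 1.006, -26.1 to -19.2, -1.87 to -0.347, -16.3 to -1.67 and -47.3 to -29.6 points for the same shares. The Slc25a22 share against EpCAM+ libraries passed without EpCAM+ 4 or EpCAM+ 7 (exact permutation test, adjusted p = 0.0330 each) and as a log2 ratio of TPM with a pseudocount of 1 (1.35, adjusted p = 0.0427). The Slc25a12 share against EpCAM+ libraries passed without the 3 libraries named above (-14.51 points, adjusted p = 0.0217), and against CD45+ libraries it was -16.05 points from counts per effective length.

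With the replicate number as a block, 11 members were higher and 5 lower in brush against EpCAM+ cells. In brush against CD45+ cells 12 were higher and 3 lower, and in EpCAM+ against CD45+ cells 10 and 2. Beside these, 37.5%, 41.5% and 35.6% of all genes were called with the block (40.3%, 45.8% and 40.5% in the main result). Same-numbered libraries correlated at -0.072 to 0.239, -0.2 to 0.103 and -0.183 to 0.267 in those comparisons, so the numbers were not taken to pair the libraries; 2 of 14, 0 of 8 and 2 of 8 libraries correlated best with their own number. Members whose calls were lost with the block were Slc25a10 in brush against EpCAM+ and Slc25a12 and Slc25a53 in EpCAM+ against CD45+ cells, and Slc25a10 passed in brush against CD45+ cells (0.98, adjusted p = 0.0494). Of the other genes named, Agk, Cpt1c and Sfxn4 were lost. Depth limits the 8 untested members and the low ones, such as Slc25a23 and Slc25a53, most in CD45+ 1 and brush 4. In CD45+ 1 other members also rest on few reads. Slc25a29, Slc25a20, Slc25a45, Slc25a35 and Slc25a11 had 4, 1, 2, 1 and 12 counts there.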

Other observations

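A group of 5 members chosen after their values were seen, Slc25a11, Slc25a12, Slc25a20, Slc25a29 and Slc25a35, together held 14.3 to 20.4% of the family's TPM in the 7 brush libraries. Their share was 3.44 to 7.38% in EpCAM+ and 7.47 to 8.75% in CD45+ libraries. Since the choice fixed the direction, these shares carry no test.

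Slc25a53, within whose span the gene Zcchc18 lies on the other strand without shared exon bases, had a log2 fold change of 1.39 in brush over EpCAM+ cells (edgeR adjusted p = 0.0782), while Zcchc18 averaged 66.3 CPM in brush, 1.09 CPM in EpCAM+ and 24.8 CPM in CD45+ libraries (log2 fold change 5.91 over EpCAM+ cells, edgeR adjusted p = 4.41e-08).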
